A study of Homo sapiens with 3 samples.

Results

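RNA from H1975 cells transfected with siHHLA3-3, a small interfering RNA (siRNA) against HHLA3, was compared with RNA from H1975 cells transfected with the control siRNA, siNC. H1975 is an established human lung adenocarcinoma line with mutant EGFR. There was 1 sequencing library per siRNA, so each value below describes those libraries, and no p-value was computed. Compared were the 13850 of 16662 listed genes whose mean over the siNC and siHHLA3-3 libraries was 1 CPM or more. CPM are reads per gene scaled to the size of the library, here after TMM normalisation. The genes nearest to that limit were FTH1P23 (mean 0.995 CPM) and CLTRN (0.998 CPM) outside it, and SSC4D and SLC25A34 (both 1.00 CPM) inside it.

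The study held 3 libraries in all, the last from cells given siHHLA3-1, another siRNA against the same gene. Per the labels, the cells of every group were grown in medium with serum, transfected at about 70% confluency, kept without serum for 6 h and then with 10% serum for 24 h. No group carried a further agent or genetic change, and the siRNA sequences are not given in the labels. Each library has its own batch label, so the effects of batch and of siRNA cannot be told apart. The siNC library held 32813003 reads, the siHHLA3-3 library 26950852 and the siHHLA3-1 library 35069930. Mitochondrially encoded genes took 6.24% of the siNC reads and 5.93% of the siHHLA3-3 reads. Intervals are exact 95% intervals for counting error only. Both knockdown comparisons share the siNC library, so values for siHHLA3-1 are set beside those for siHHLA3-3 without a test of their likeness.

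As background, an siRNA is loaded into an Argonaute protein, which uses the guide strand to find and cut a fully matching mRNA. The bases near the 5′ end of the guide, its seed, can also pair with short stretches in the 3′ untranslated regions (UTRs) of other mRNAs, much as a microRNA does, and lower their levels. HHLA3 takes its name from HERV-H, an endogenous retrovirus with whose long terminal repeat its transcripts are associated. A frequent stress programme in cultured tumour cells is the integrated stress response, in which phosphorylation of the initiation factor eIF2 alpha favours translation of the transcription factor ATF4. ATF4 with its partners then induces CHOP (DDIT3), other regulators and genes for amino acid supply.

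The targeted gene was lower with siHHLA3-3. HHLA3 (ENSG00000197568, chr1:70354805-70385339 on the plus strand of GRCh38) had 192 reads and 5.99 CPM with siNC (5.17 to 6.89). With siHHLA3-3 it had 20 reads and 0.735 CPM (0.449 to 1.13), and with siHHLA3-1 55 reads and 1.55 CPM. HHLA3 was thus 8.15-fold lower with siHHLA3-3 (5.13 to 13.6), or -2.01 as the log2 ratio of (CPM + 1) used throughout, which understates the differences of low genes. In bulk samples such as these, fewer cells expressing a gene and less of its RNA per cell cannot be told apart. Of its neighbours, CTH, the enzyme that makes cysteine from cystathionine, went from 7.61 to 18.3 CPM, 2.40-fold higher (2.05 to 2.81). ANKRD13C, next to HHLA3 on the opposite strand, had 32.2 and 29.8 CPM and a ratio of -0.11. LRRC40, SRSF11 and ZRANB2 had ratios of -0.24, 0.00 and 0.15.

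Most genes lay close to the control. The median log2 ratio was -0.01, the quartiles were -0.20 and 0.18, and 12570 genes (90.8%) were within 1.5-fold. Of the 13850 genes, 113 were at least 2-fold higher with siHHLA3-3 (0.816%) and 205 at least 2-fold lower (1.48%), 318 in all (2.3%). The counting intervals of all 318 lay past 1.5-fold. Higher and lower genes differed in level and type, as a description. The 113 higher genes had medians of 7.92 and 22.6 CPM in the siNC and siHHLA3-3 libraries, and 86 of them (76.1%) were protein coding. The 205 lower genes had medians of 37.5 and 15.2 CPM, and 199 of them (97.1%) were protein coding, beside 85.3% of all genes kept. Of the lowest 20% of genes by mean level, up to 5.30 CPM, 32 were higher and 17 lower. Of the top 20%, above 87.5 CPM, 13 were higher and 34 lower. With the authors' deposited TPM the excess of lower genes was smaller, 138 higher and 159 lower. Without the genes that carry the 7-base sequence GTGAACT in the 3′ untranslated region, described further on, the counts were 111 higher and 80 lower. That sequence was chosen from these same ratios for its low values, so a drop in the lower count is built in.

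**Figure D1:**
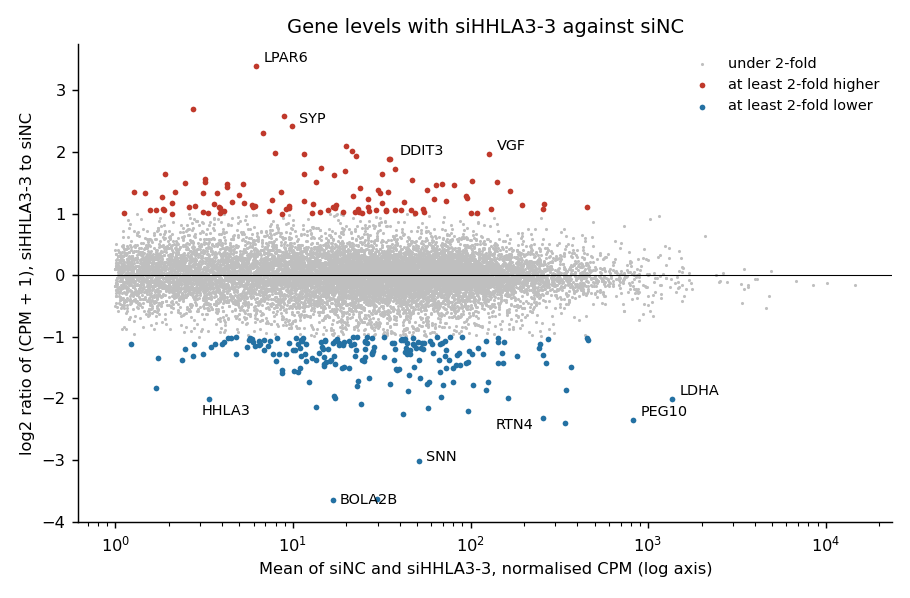
Each point is 1 of 13850 genes, placed by the mean of its normalised CPM in the siNC and siHHLA3-3 libraries (log axis) and by the log2 ratio of (CPM + 1), with 113 genes at least 2-fold higher in red and 205 at least 2-fold lower in blue. The lower genes reach further up the scale of levels, to LDHA at 2196 CPM with siNC.

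The highest genes included SYP, BSN and VGF, which are best known from neurons. LPAR6, a receptor for lysophosphatidic acid, had 8 reads with siNC and 332 with siHHLA3-3, or 0.249 and 12.2 CPM (48.9-fold higher, 24.5 to 114), and 0.845 CPM with siHHLA3-1. LPAR6 lies at chr13:48389567-48444704 within the span of RB1 on the opposite strand. RB1 itself had 48.3 and 45.4 CPM. SYP, the synaptic vesicle protein synaptophysin, went from 2.43 to 17.3 CPM (7.11-fold, 5.59 to 9.16), and had 2.11 CPM with siHHLA3-1. BSN, a presynaptic scaffold, went from 7.92 to 35.1 CPM and VGF, a secreted neuropeptide precursor, from 51.4 to 204 CPM. In the siHHLA3-1 library these stood at 9.41 and 40.2 CPM, near the control. The membrane protein gene TMEM198 had 1.84, 16.0 and 1.30 CPM with siNC, siHHLA3-3 and siHHLA3-1.

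A region of chromosome 14 held a pair of higher genes beside an unraised neighbour. HIF1A-AS3, annotated opposite HIF1A, went from 6.95 to 32.9 CPM (4.73-fold, 4.08 to 5.51). SNAPC1, a subunit of the complex that activates transcription of small nuclear RNA genes, begins downstream at chr14:61762357. It went from 19.0 to 49.95 CPM (2.62-fold, 2.38 to 2.89). With siHHLA3-1, HIF1A-AS3 and SNAPC1 had 8.42 and 13.3 CPM. HIF1A had 416 and 326 CPM and a ratio of -0.35. No source used here says whether the counting used strand, so reads of overlapping genes on opposite strands, HIF1A-AS3 and LPAR6 included, cannot be assigned with certainty.

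The other genes at the top were regulators, matrix genes and cytokines. NRARP, a feedback inhibitor of Notch signalling, went from 14.3 to 55.5 CPM and had 11.6 CPM with siHHLA3-1. HAS2, which makes hyaluronan, went from 8.73 to 36.4 CPM, and COL7A1, the collagen of anchoring fibrils, from 17.0 to 58.4 CPM. DISP2, ZNF629 and ZNF554 had ratios of 1.74, 1.69 and 1.65. For ZNF554, a zinc finger gene, the siHHLA3-1 library gave nearly the same level (41.5 beside 48.7 CPM), whereas HAS2, COL7A1, DISP2 and ZNF629 lay between siNC and siHHLA3-3 there, at 14.2, 29.6, 11.4 and 15.3 CPM.

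The lowest ratios belonged to BOLA2B (31.9 to 1.62 CPM) and XAGE1B (56.0 to 3.60 CPM), both members of near-identical gene copies among which reads can be divided differently, so their values are uncertain. With siHHLA3-1 they had 1.61 and 8.39 CPM. SNN, the small membrane protein stannin, went from 91.9 to 10.5 CPM, 8.72-fold lower (7.72 to 9.88), with 82.1 CPM in the siHHLA3-1 library. PEG10, a gene derived from a retrotransposon, went from 1379 to 271 CPM, 5.09-fold lower (4.96 to 5.21), with 843 CPM with siHHLA3-1. RTN4, the reticulon Nogo that shapes endoplasmic reticulum tubules, had 426, 84.4 and 418 CPM with siNC, siHHLA3-3 and siHHLA3-1. LDHA, which converts pyruvate to lactate, had 2196, 548 and 1593 CPM and was 4.01-fold lower (3.94 to 4.08).

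The next lowest genes encode enzymes and regulators of varied function. GALNT7, an enzyme of mucin-type O-glycosylation, had 159, 33.8 and 135 CPM with siNC, siHHLA3-3 and siHHLA3-1. GMDS, which makes GDP-fucose, had 22.8, 4.37 and 15.6 CPM, and the aldehyde dehydrogenase ALDH9A1 95.2, 20.7 and 86.9 CPM. The ubiquitin ligase TRIM2 had 39.7, 8.59 and 42.9 CPM. RIDA had 28.2, 6.32 and 25.4 CPM. JPT1 and the actin regulator GMFB had ratios of -1.99 and -1.98, beside -0.07 and -0.12 in the siHHLA3-1 library. Among these named genes, SNN, RTN4, LDHA, GALNT7, GMDS, ALDH9A1, TRIM2, RIDA, JPT1 and GMFB were low with siHHLA3-3. With siHHLA3-1 they were within 1.5-fold of siNC. They were picked for their siHHLA3-3 ratios. Of all 205 lower genes, 174 were under 1.5-fold either way with siHHLA3-1 and 145 were below 0. Of the 113 higher genes, 67 were under 1.5-fold there and 96 were above 0 (median 0.50). Of all genes kept, 6627 were above 0 with siHHLA3-1 and 7223 below. The comparisons share the siNC library, so their likeness was not tested.

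**Figure D2:**
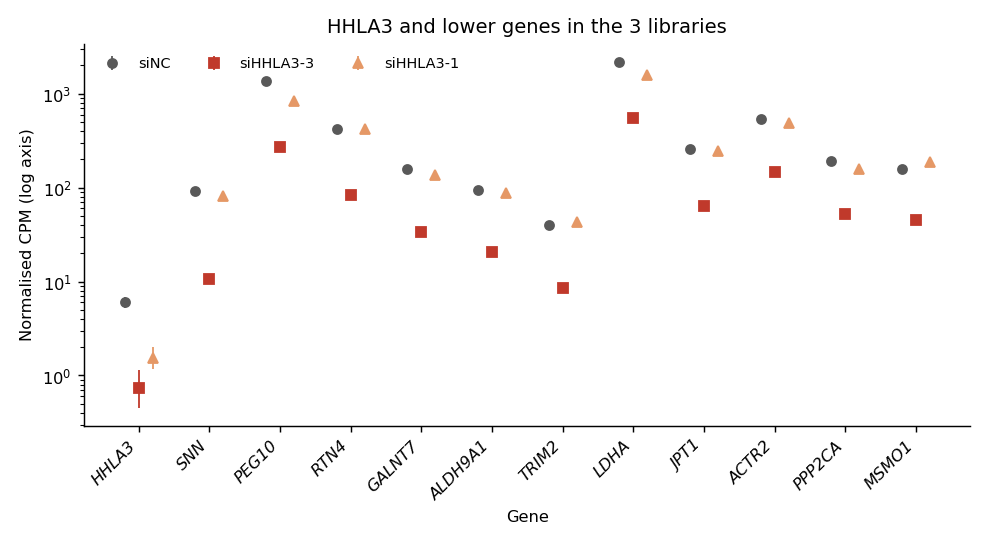
Normalised CPM (log axis) of HHLA3 and 11 lower genes in the siNC (grey circles), siHHLA3-3 (red squares) and siHHLA3-1 (orange triangles) libraries, with exact 95% counting intervals. HHLA3 is low with both siRNAs, while SNN, RTN4, TRIM2 and MSMO1 are low in the siHHLA3-3 library and near the control in the siHHLA3-1 library.

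Many of the lower genes shared a short sequence in the 3′ UTR. Among 16329 7-base sequences scanned in the annotated 3′ UTRs of 10477 genes (GENCODE 29, mean of at least 5 CPM), GTGAACT had the lowest mean log2 ratio of genes with it relative to genes without it, -0.30. The next, TGAACTA (-0.22), GAACTAT (-0.19), TGTGAAC (-0.18) and TGAACTT (-0.17), overlap it. GTGAACT was chosen from these same ratios, so its share among lower genes is a description and supports nothing. It was found in 119 of the 185 searched genes at least 2-fold lower (64.3%) and in 1378 of all 10477 (13.2%). Of the 475 genes 1.5-fold to 2-fold lower, 37.5% carried it, and of the genes within 1.5-fold 11.2%. Among 69 searched higher genes 2 carried it (2.90%), HMGA2 and ALDH1L2.

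HHLA3 itself holds GTGAACT at 1 genomic position, 200 bases after the stop codon in a 3′ UTR of 413 bases. The position is present in 4 of 7 annotated transcripts, 3 of them protein coding. The sites of HHLA3 and of 9 of the leading lower carriers are shown because they let the shared letters be seen beside the varied flanks. Each runs 5′ to 3′ on the transcript strand (GRCh38), with 12 bases before the sequence, which is in capitals, and 2 after it.
HHLA3 (chr1:70367810-70367816, plus strand): agcgattaacctGTGAACTtc
SNN (chr16:11676637-11676643, plus strand): ctactgtaatgcGTGAACTaa
SNN (chr16:11676653-11676659, plus strand): actaacaaacctGTGAACTgt
SNN (chr16:11677562-11677568, plus strand): ggcagggcagagGTGAACTtg
PEG10 (chr7:94667630-94667636, plus strand): tattcctttactGTGAACTtc
PEG10 (chr7:94668791-94668797, plus strand): tgaagtaatacaGTGAACTtg
RTN4 (chr2:54972227-54972233, minus strand): gtggaatgcattGTGAACTgt
GALNT7 (chr4:173322796-173322802, plus strand): gtgaagccaagaGTGAACTga
GALNT7 (chr4:173322899-173322905, plus strand): ttattaacaaacGTGAACTac
ALDH9A1 (chr1:165662395-165662401, minus strand): ttctgtgtgaatGTGAACTtg
GMDS (chr6:1623810-1623816, minus strand): aatggtctttctGTGAACTag
TRIM2 (chr4:153335077-153335083, plus strand): aaggaatcattgGTGAACTtt
TRIM2 (chr4:153335206-153335212, plus strand): agttttacatctGTGAACTat
TRIM2 (chr4:153337301-153337307, plus strand): tcaattatatttGTGAACTta
LDHA (chr11:18407730-18407736, plus strand): ggatcttattttGTGAACTat
JPT1 (chr17:75136048-75136054, minus strand): tcctccatgcttGTGAACTgc

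Outside the 7 bases, the sites differed in how much they shared with that of HHLA3, without a test against chance. Of the 12 bases before the sequence, 7 were the same as in HHLA3 at the SNN site at chr16:11676653-11676659, among them the unbroken aacct next to it. At the TRIM2 site at chr4:153335206-153335212 6 were the same, and at the GALNT7 site at chr4:173322899-173322905 1. The GTGAACT site of JPT1 lies 48 bases after the stop codon, and that of RTN4 923 bases after it, in 3′ UTRs of 854 and 969 bases. Because the siRNA sequence is not given, whether GTGAACT matches the guide of siHHLA3-3 was not tested.

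Ratios were lower where a gene held more sites, a description only, as GTGAACT was chosen from these same ratios. Counted in the longest annotated 3′ UTR, the 9231 genes with 0 sites had a median log2 ratio of -0.00379 and 0.737% of them were at least 2-fold lower. The 1096 genes with 1 site had a median of -0.19 (7.76% lower), the 131 with 2 sites -0.38 (20.6%) and the 19 with 3 or more sites -0.72 (26.3%). In the siHHLA3-1 library the medians of these groups were -0.04, -0.03, -0.04 and -0.17. SNN, TRIM2 and the kinase gene HIPK2 (386 to 143 CPM, ratio -1.42) each hold 3 sites, and PEG10, GALNT7, GMFB and the RNA helicase gene DDX6 (145 to 59.5 CPM, -1.27) each hold 2. HIPK2 was lower with siHHLA3-1 too, at 188 CPM, while DDX6 had 141 CPM there.

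**Figure D3:**
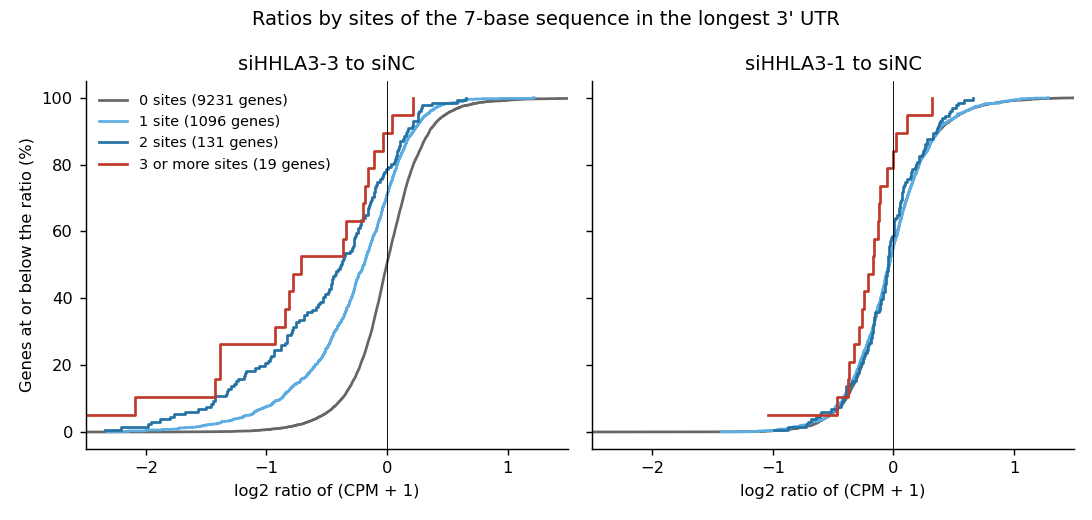
Cumulative percentage of genes at or below each log2 ratio for siHHLA3-3 (left) and siHHLA3-1 (right), with genes split by their number of GTGAACT sites in the longest 3′ UTR. With siHHLA3-3 the curves move left from 0 sites (median -0.00379) through 1 (-0.19) and 2 (-0.38) to 3 or more (-0.72), and with siHHLA3-1 the curves for 0, 1 and 2 sites lie together. Genes beyond the ends of the axis, among them SNN at -3.01 with siHHLA3-3, BOLA2B and XAGE1B, are counted but lie outside the panels.

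The flanks and the length of the 3′ UTR went with the size of the difference. Among genes with 1 site, those whose site was preceded by T had a median of -0.26 (514 genes), by A -0.15 (331), by G -0.13 (200) and by C -0.04 (50). A site followed by A had -0.30 (178 genes), by T -0.26 (340), by C -0.14 (225) and by G -0.13 (353). Sites with T on both sides had -0.32, whereas sites without T before and with C or G after had -0.08 (168 and 314 genes). Carriers among the genes with the shortest 3′ UTRs, up to 629 bases, had a median of -0.47 (53 genes) and those among the longest, from 2816 bases, -0.19 (684 genes). Genes of the same length classes without a site had -0.01 and -0.02.

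A site in the coding sequence alone went with smaller differences. The 978 genes with GTGAACT in the coding sequence and in no 3′ UTR had a median of -0.10, and 19 of them (1.94%) were at least 2-fold lower, beside 0.579% of the 8121 genes with it in neither place. Of the lower genes, 66 had no 3′ UTR site. Among these 66 are VAV3, PADI4, TEF and POU2F3, which hold it in the coding sequence, and BOLA2B, XAGE1B, STRADB, PER3 and SOX2, which hold it in neither.

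Several genes of the ATF4 and CHOP stress programme were higher with siHHLA3-3. Of 22 regulators measured, 16 were above 0 and 8 at least 2-fold higher, with a median log2 ratio of 0.69. Of all genes kept, 48.6% were above 0, 0.816% were at least 2-fold higher and the median was -0.01. ATF4 itself went from 198 to 335 CPM (1.70-fold, 1.64 to 1.75), with 252 CPM with siHHLA3-1. Its partner and target DDIT3, the transcription factor CHOP, went from 14.4 to 56.2 CPM (3.90-fold, 3.51 to 4.34), with 21.1 CPM with siHHLA3-1. CHAC1, which degrades glutathione, had 4.11, 19.0 and 7.21 CPM with siNC, siHHLA3-3 and siHHLA3-1. PPP1R15A, the phosphatase subunit that reverses eIF2 alpha phosphorylation, had 51.7, 151 and 79.1 CPM. The pseudokinase TRIB3 had 93.1, 240 and 136 CPM, the leucine sensor SESN2 31.2, 82.9 and 53.8 CPM, and ATF3 15.3, 37.5 and 25.5 CPM. All 7 of these genes stood highest with siHHLA3-3 and lowest with siNC. Other members did not move with them: GDF15 had 48.0 and 46.4 CPM with siNC and siHHLA3-3, VLDLR 11.4 and 11.3 CPM, and the eIF2 alpha kinase gene EIF2AK3 38.9 and 28.2 CPM.

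Genes of amino acid supply, many of them known ATF4 targets, were split. Of 18 genes of serine, asparagine and one-carbon synthesis 13 were above 0 and 2 at least 2-fold higher (median 0.24, and -0.17 with siHHLA3-1). Over all genes kept, 48.6% were above 0 and 0.816% at least 2-fold higher. ASNS, asparagine synthetase, had 26 reads with siNC and 112 with siHHLA3-3 (5.08-fold, 3.29 to 8.11). ALDH1L2, of mitochondrial folate metabolism, went from 4.18 to 11.1 CPM, and PSAT1, of serine synthesis, from 78.9 to 143 CPM, whereas MTHFD1L went from 67.8 to 39.9 CPM and carries GTGAACT. Of 13 amino acid transporters 10 were above 0 and 0 reached 2-fold (median 0.45, and 0.00 with siHHLA3-1), with the glutamine carrier SLC1A5 at 101 and 181 CPM. The cystine carrier SLC7A11 had 56.9 and 48.8 CPM. The 20 cytosolic aminoacyl-tRNA synthetases had a median of -0.01 with 10 above 0, among them AARS1 (344 to 629 CPM) and FARSB (96.6 to 53.8 CPM).

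**Figure D4:**
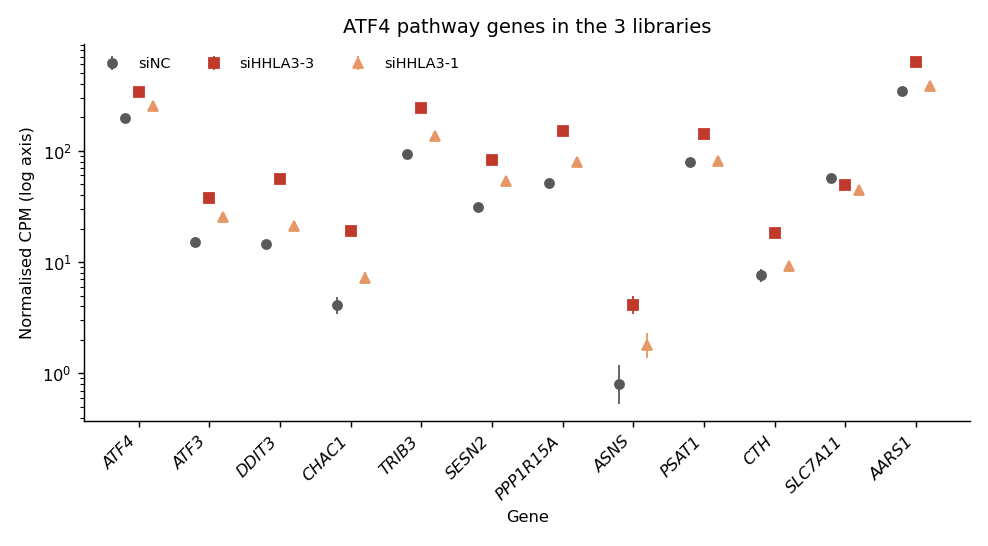
Normalised CPM (log axis) of 12 genes of the ATF4 pathway and amino acid supply in the siNC (grey circles), siHHLA3-3 (red squares) and siHHLA3-1 (orange triangles) libraries, with exact 95% counting intervals. From ATF4 to PPP1R15A and for ASNS the siHHLA3-3 point is the highest and the siNC point the lowest, whereas SLC7A11 is highest with siNC.

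Genes of the endoplasmic reticulum's own stress response did not share this direction as a list. Of 23 chaperones and unfolded protein response genes 9 were above 0 and 0 reached 2-fold in either direction. Of all genes kept, 48.6% were above 0 and 2.3% reached 2-fold in either direction. The median was -0.14, or -0.02 without carriers of GTGAACT, a rise favoured in advance as GTGAACT was chosen from these same ratios. On the higher side, the transcription factor gene XBP1 had 108 and 178 CPM, the chaperone HSPA5 758 and 838 CPM, and HERPUD1 34.6 and 45.3 CPM. On the lower side, PDIA6, CREB3L2, CALR and SEL1L had ratios of -0.61, -0.53, -0.47 and -0.47. The 18 heat shock chaperones had a median of -0.14, with 14 below 0, where 51.4% of all genes kept were below 0.

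Promoters were searched for the CARE motif that ATF4 dimers are known to bind (TGATGNAA on either strand, RefSeq promoters of GRCh38.p14 from 250 bases before to 50 after the start). It was present in 4 of 20 searched members of the regulator list and in 258 of 9968 genes searched in all (2.59%). Of the matched genes, ATF3 and CHAC1 were at least 2-fold higher, while CEBPG and JDP2 had ratios of 0.61 and 0.79. No match was recorded for DDIT3, PPP1R15A, SESN2, TRIB3 or CTH, which were at least 2-fold higher, although not all 22 regulators were searched. Whether the motif went with higher levels was not tested. The 4 matches are shown in capitals, with 10 bases on either side on the gene's strand, so that their letters can be compared.
ATF3 (chr1:212565206-212565233): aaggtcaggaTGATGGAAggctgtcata
CHAC1 (chr15:40953252-40953279, motif on the opposite strand): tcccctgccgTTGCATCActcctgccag
CEBPG (chr19:33374061-33374088): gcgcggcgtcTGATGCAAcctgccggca
JDP2 (chr14:75427996-75428023): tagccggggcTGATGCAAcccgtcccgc
CEBPG, a dimer partner of ATF4, had 40.6 and 62.4 CPM with siNC and siHHLA3-3, and JDP2, an AP-1 family repressor, 25.5 and 44.9 CPM. A match describes letters in a window and not a bound site.

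Some cytokine and MAPK output genes were higher and others lower. Of 21 genes of the NF-kB cytokine and feedback list 15 were above 0, 6 below it and 3 at least 2-fold higher (median 0.45, and 0.35 with siHHLA3-1), where 48.6% of all genes kept were above 0 and 0.816% at least 2-fold higher. CXCL2, a neutrophil chemokine, had 5.08, 18.0 and 6.70 CPM with siNC, siHHLA3-3 and siHHLA3-1. IL6 had 7.86, 26.4 and 12.5 CPM, and CSF2, which encodes GM-CSF, 41 reads with siNC and 107 with siHHLA3-3. CCL5 and CSF1 lay on the other side, at -0.84 and -0.81, and at 0.96 and 0.60 in the siHHLA3-1 library. The interferon-stimulated genes had a median of 0.28 with 39 of 43 above 0, and 2 at least 2-fold higher, RSAD2 and BATF2. Their median was 0.75 with siHHLA3-1. GBP2, an interferon-induced GTPase, had 17.7, 8.41 and 39.7 CPM in the siNC, siHHLA3-3 and siHHLA3-1 libraries.

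The 22 MAPK output and feedback genes had a median of 0.40 with siHHLA3-3, 16 of them above 0 and 6 below it, and -0.12 with siHHLA3-1. Limited to members averaging 5 CPM or more, the median was 0.53. HMGA2, a chromatin protein and a carrier of GTGAACT, went from 44.0 to 102 CPM, and FOSL1, an AP-1 subunit, from 165 to 347 CPM. These 2 were the members at least 2-fold higher. Over all genes kept, 0.816% were at least 2-fold higher and 48.6% above 0. The ETS factor ETV5 had 18.6 and 35.2 CPM and the feedback gene SPRY4 19.3 and 34.4 CPM, while SPRED1, another inhibitor of the pathway, had 29.9 and 16.7 CPM. With siHHLA3-1, FOSL1, ETV5 and SPRY4 had 136, 16.5 and 17.6 CPM, below siNC. Of the ligands of EGFR, AREG had 15.2 and 31.9 CPM (2.10-fold, 1.88 to 2.35) and EREG 70.7 and 141 CPM (2.00-fold, 1.90 to 2.10). Both were at -0.32 with siHHLA3-1. EGFR had 324 and 419 CPM, and HBEGF, which carries GTGAACT, 8.29 and 4.92 CPM.

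Cell cycle lists had medians on different sides of 0. The 40 DNA replication and G1/S genes had a median of 0.13 with 29 above 0, where siHHLA3-1 gave -0.52. The 38 mitotic genes had a median of -0.23 with 33 below 0, and -0.67 with siHHLA3-1. None of either list reached 2-fold with siHHLA3-3, where only 2.3% of all genes kept did. Of all genes kept, 48.6% were above 0 and 51.4% below it. MCM3, of the replicative helicase, had 172, 239 and 114 CPM with siNC, siHHLA3-3 and siHHLA3-1, and PCNA 279, 336 and 215 CPM. The spindle factor TPX2 had 474, 295 and 264 CPM. MCM3 and PCNA were thus highest with siHHLA3-3 and lowest with siHHLA3-1, whereas TPX2 was lower with both siRNAs.

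Several metabolic lists lay below 0, mostly by little. Of all genes kept, 51.4% were below 0 and 1.48% at least 2-fold lower. The 15 reference housekeeping genes had a median of -0.11. Of 28 glutathione and NRF2 target genes 25 were below 0 (median -0.26, and -0.23 with siHHLA3-1) and 1 was at least 2-fold lower. That gene, the aldo-keto reductase AKR1B10, had 103 reads with siNC and 5 with siHHLA3-3 (17.5-fold lower, 7.25 to 55.0) and carries GTGAACT. GSR, glutathione reductase, had 108 and 57.2 CPM, and GCLC, of glutathione synthesis, 103 and 62.9 CPM, neither with the sequence. HMOX1, haem oxygenase, lay on the other side with 1624 and 2539 CPM. Of 40 nuclear oxidative phosphorylation genes 38 were below 0 (median -0.18, and -0.14 with siHHLA3-1), with NDUFB5 of complex I, a carrier, at 22.3 and 7.57 CPM. Of 27 cholesterol synthesis genes 20 were below 0 (median -0.12, and 0.01 with siHHLA3-1). There MSMO1, a sterol demethylase gene and a carrier, had 160 and 45.7 CPM, and HMGCS1, not a carrier, 279 and 147 CPM. In the glycolysis list LDHA alone reached 2-fold lower, and the 27 genes had 13 above 0. The glucose transporter SLC2A3 had 48.2 and 93.7 CPM, and LDHB 5.70 and 3.86 CPM.

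Circadian clock genes lay on both sides of the control. Of 16 measured, 11 were below 0 and 5 above it (median -0.58, and -0.13 with siHHLA3-1), 3 were at least 2-fold lower and 1 higher. Of all genes kept, 51.4% were below 0 and 1.48% at least 2-fold lower. PER3, a repressor of the clock, had 23.9, 8.56 and 14.8 CPM in the siNC, siHHLA3-3 and siHHLA3-1 libraries. The output factors TEF and DBP had 39.9 and 16.1 CPM, and 5.33 and 1.91 CPM, with siNC and siHHLA3-3. The repressors CRY1, PER1 and PER2 had ratios of -0.85, -0.72 and -0.70. ARNTL2, a paralogue of the activator BMAL1, had 35.8, 73.8 and 39.1 CPM with siNC, siHHLA3-3 and siHHLA3-1. In this list 1 gene carried GTGAACT in the 3′ UTR, CLOCK (43.8 to 26.8 CPM), and without it the median was -0.51. A higher median without carriers is favoured in advance, as GTGAACT was chosen for low values in these same ratios. The E-box of clock activators (CACGTG) was found in the promoters of 5 of 14 searched members, PER1, NR1D2, TEF, BHLHE40 and CIART, and in 12.4% of all 9968 genes searched. The hour at which each library was harvested is not given in the labels.

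Signalling and lineage lists held large single differences in both directions. Over all genes kept, 51.4% were below 0. Of 29 TGF-beta receptors, SMADs and targets 19 were below 0, and 9 carried GTGAACT. Their median was -0.21, and -0.10 without the carriers. GTGAACT was chosen for low values in these same ratios, so a rise without carriers is favoured in advance. ID3, an inhibitor of helix-loop-helix factors and a carrier, had 120, 59.6 and 151 CPM with siNC, siHHLA3-3 and siHHLA3-1, and the inhibitor SMAD7 14.2, 23.9 and 21.7 CPM. Of 28 WNT pathway genes 21 were below 0 (median -0.26), with the stem cell factor SOX2 at 10.4 and 4.44 CPM and the repressor TCF7L1 at 2.12 and 5.66 CPM. In the Notch list the ubiquitin ligases DTX4 (ratio -1.09) and DTX3 (1.06) differed in opposite directions, and NRARP was the highest member. Of 15 genes of the LKB1, STRAD and AMPK list 13 were below 0. CAB39, which holds LKB1 active and carries GTGAACT, had 368, 178 and 356 CPM, and the pseudokinase STRADB 22.5, 7.49 and 9.10 CPM.

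Neuronal genes did not move as a list. The 21 measured members had a median of 0.01, with 3 at least 2-fold higher (SYP, BSN and VGF) and 1 lower (SNN). Over all genes kept, 0.816% were at least 2-fold higher and 1.48% lower. REST, the repressor of neuronal genes, had 55.1, 29.6 and 69.9 CPM with siNC, siHHLA3-3 and siHHLA3-1. INA, a neuronal intermediate filament, had 21 reads with siNC and 58 with siHHLA3-3. Among apoptosis regulators, PMAIP1, the BH3-only protein NOXA, had 121 and 268 CPM with siNC and siHHLA3-3. AXL, a receptor tyrosine kinase in the YAP list, had 6.61, 16.6 and 5.94 CPM with siNC, siHHLA3-3 and siHHLA3-1, and the matricellular CCN1 66.7, 135 and 104 CPM. Of 25 ribosome biogenesis genes 1 reached 2-fold, NOLC1, a nucleolar chaperone, at 288 and 620 CPM.

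**Figure D5:**
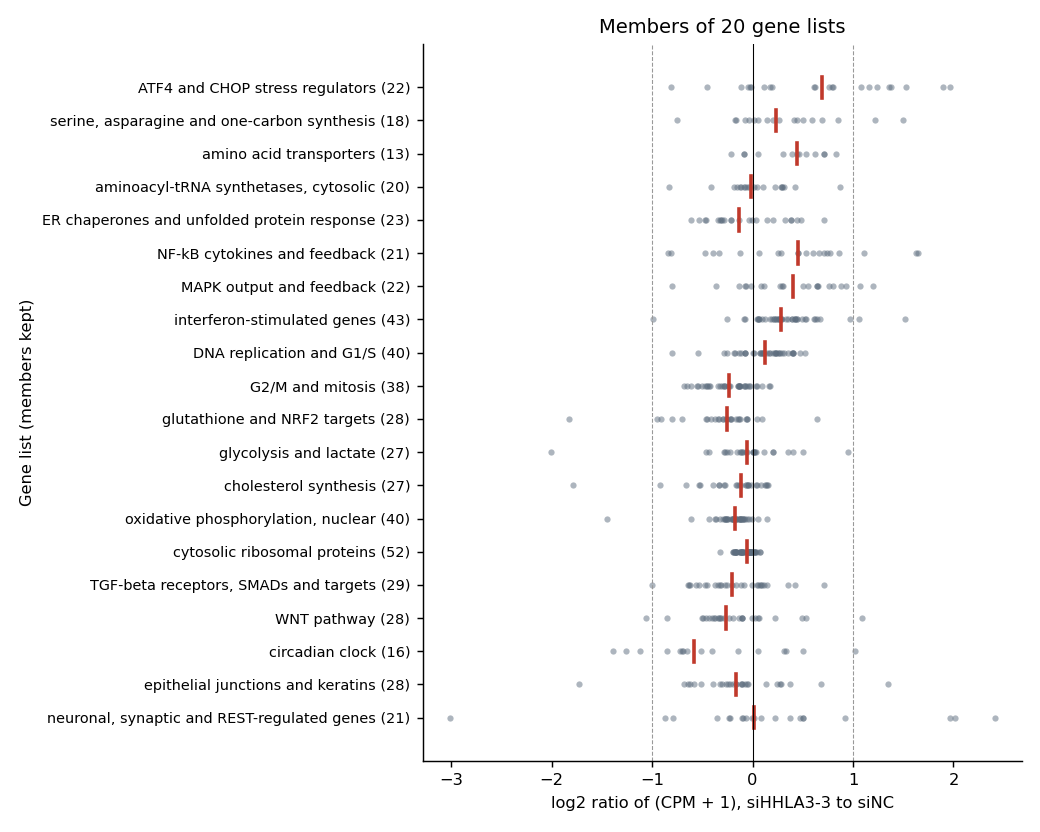
Members of 20 gene lists by their log2 ratio with siHHLA3-3 (grey points), with the list median (red bar) and dashed lines at 2-fold. The ATF4 regulators have the highest median (0.69) and the clock genes the lowest (-0.58) of the lists plotted, and the ribosomal proteins lie close to 0.

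The labelled cell type was checked against marker lists. Of 13 lung and epithelial markers chosen, 9 were listed and kept and 4 were not found by symbol among the listed genes. All 9 were below 0 with siHHLA3-3 (median -0.26, and 0.06 with siHHLA3-1), where 51.4% of all genes kept were below 0. The summed levels of the 9 were 5483, 4266 and 5204 CPM in the siNC, siHHLA3-3 and siHHLA3-1 libraries. NKX2-1, the lung lineage factor and a carrier of GTGAACT, had ratios of -0.89 and 0.13 with siHHLA3-3 and siHHLA3-1, KRT19 levels of 1141, 739 and 1084 CPM with siNC, siHHLA3-3 and siHHLA3-1, and EPCAM 427, 374 and 419 CPM. Of other cell types, 2 fibroblast, 2 endothelial, 3 leukocyte, 3 neuroendocrine and 4 squamous markers passed the limit of 1 CPM. The summed levels with siNC and siHHLA3-3 were 12.9 and 12.3, 9.66 and 5.00, 46.2 and 41.3, 15.4 and 23.8, and 65.0 and 40.3 CPM. The squamous sum covers all 5 listed markers, not only the 4 that passed. The endothelial sum rests mostly on CDH5 (7.95 and 3.01 CPM). The neuroendocrine sum rests on SYP and on POU2F3, which is a tuft cell factor rather than a neuroendocrine marker. SYP (2.43 and 17.3 CPM) had a ratio of 2.41 and POU2F3 of -1.22, so that sum mixes opposite differences. The squamous gene IVL, a carrier, had 19.5 and 5.18 CPM. The part of these markers in the differences above was not tested. The 15 reference housekeeping genes had a median of -0.11.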

How the data were processed

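The authors deposited 1 table with 4 values per gene and library. The deposited counts are whole reads per gene, not normalised. Per the file headers, the deposited CPM are those reads relative to the library total. The authors' FPKM and TPM, per the file headers, also take gene length into account. The submitters' processing notes name Bowtie2, TopHat2, HISAT and HISAT2, and the build hg19. Which program counted reads, on which annotation and with what strand setting is not given in the sources used here. Reads assigned to no listed gene were 0.305% of the siNC total and 0.325% of the siHHLA3-3 total.

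Counts were divided by library totals, recovered from the deposited counts and CPM, times TMM factors over the 3 libraries (edgeR 4.0.16 in R 4.3.3; 0.978 for siNC and 1.01 for siHHLA3-3). Ratios are log2 of (CPM + 1) over (CPM + 1), and folds are ratios of CPM. Intervals are exact binomial for folds and exact Poisson for levels, at 95%. A count of 3 corresponds to 0.0935 CPM for siNC and 0.110 CPM for siHHLA3-3. Genes at or past 2-fold were counted, without a test, as each group had 1 library. The ratio steps were tested on simulated data.

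The genes named are HHLA3 and its neighbours, up to 15 genes at either end with a mean of at least 5 CPM, and leading and defining members of 45 lists. Some genes named by that rule are not reported here. The members, lists and the sequence GTGAACT were chosen with earlier results of these data known. The 3′ UTRs come from GENCODE 29 and promoters from RefSeq, both on GRCh38 and not the authors' build, joined by gene identifier or symbol. Of 16662 identifiers 16338 were found in GENCODE 29. Alternatives were DESeq2 1.42.0 size factors, library totals, TMM from 2 libraries, a pseudocount of 0.1, other filters, deposited TPM and FPKM, thinning, a 1.5-fold threshold and leaving out carriers of GTGAACT. Other steps used Python 3.11.15, numpy 2.4.6, scipy 1.17.1, pandas 2.3.3 and matplotlib 3.10.9.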

Additional observations from a re-analysis of the deposited data

Results flagged for a closer look

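Of the genes at least 2-fold lower with siHHLA3-3, 2 were at least 2-fold higher with siHHLA3-1 against the same siNC library. IVL, which encodes involucrin of the cornified envelope, had a log2 ratio of -1.73 with siHHLA3-3, from 19.5 to 5.18 CPM, and of 1.16 with siHHLA3-1, at 44.8 CPM. CDH5, which encodes the endothelial cadherin, had ratios of -1.16 and 1.17, from 7.95 CPM to 3.01 and 19.2 CPM. The 3′ UTR of IVL carries GTGAACT and that of CDH5 does not. With 1 library per siRNA these differences were not tested.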

How the results depend on the processing

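No 2-fold call among the named genes changed sign under an alternative. The count of higher genes (113) and of lower genes (205) became 187 and 263 with a pseudocount of 0.1, 68 and 107 with the deposited FPKM, 508 and 772 at a 1.5-fold threshold, and 111 and 80 without carriers of GTGAACT. HHLA3 had -2.87 with a pseudocount of 0.1. The share of lower genes that carry GTGAACT (64.3%) was 45% at 1.5-fold. The higher share of all calls was 35.5%, and 46.5% with the deposited TPM and 58.1% without carriers. Because GTGAACT was chosen from these same ratios, the changes without carriers are built in. Of the 440 alternative list medians 9 moved by more than 0.1, among them the clock (-0.40 with the deposited FPKM), MAPK (0.53 at a mean of 5 CPM) and the lung markers (-0.42 at a mean of 5 CPM). Medians of 10 lists, all within 0.07 of 0 at first, changed sign under at least 1 setting, glycolysis, tRNA synthetases and ribosomal proteins among them, as did the ratios of SRSF11 and COL1A1. No paired analysis was possible because each group has 1 library. Leaving out a replicate could not be run for the same reason. Genes of a few reads, such as LPAR6 with 8 reads with siNC, have wide counting intervals, and the spread between cultures is unknown.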
